A study of Mus musculus with 9 samples.

Results

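Interferon regulatory factors (IRFs) are transcription factors that share a DNA-binding domain and read a common promoter element in interferon genes and in genes that interferon induces. IRF1 and IRF2 were named as the activator and the repressor of that element, IRF3 and IRF5 are activated by kinases downstream of nucleic acid sensors and Toll-like receptors, and IRF8 is best known from macrophages, dendritic cells and B cells. The IRF2-binding proteins IRF2BP1, IRF2BP2 and IRF2BPL are nuclear cofactors, and IRF2BP1 and IRF2BP2 were isolated as corepressors that bind IRF2. The messages of 8 such genes (Irf1, Irf2, Irf3, Irf5, Irf8, Irf2bp1, Irf2bp2 and Irf2bpl) were taken by symbol from the 35275 genes of the deposited table, and 7 of them were among the 13082 genes with enough counts to be tested. Each tested member had at least 265 counts in every library, and Irf8 had 5 counts or fewer.

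RNA came from wild type C57Bl/6 mouse embryonic fibroblasts (MEFs) that were kept in iso-osmolar DMEM (300 mOsm) or exposed for 3 h to DMEM with sucrose added, 200 mM for low-intensity (500 mOsm) and 300 mM for high-intensity (600 mOsm) hyperosmotic stress. Each treatment was sequenced as 3 libraries of polyadenylated RNA, 9 in all, with 21716042 to 26740832 reads counted on genes per library. The sources used here do not say whether the 3 libraries of a treatment were separate cultures, so p-values measure the spread between these libraries, which may be technical. In such bulk RNA, fewer cells of a type and less RNA per cell cannot be told apart. The fibroblast genes Col1a1 (1428 to 2006 FPKM, counts scaled to gene length and library total) and Vim (1655 to 1806 FPKM) were high in every library, while the fibroblast markers Lum and Dcn had 0 to 1 and 0 to 3 counts. Of 11 myeloid and leukocyte markers, 7 stayed below 1 FPKM in every library, among them Ptprc (0 to 7 counts) and Tyrobp (0 to 2 counts), while Cd14 (6.91 to 15.7 FPKM), Lyz2 (2.55 to 14.8 FPKM) and Csf1r (2.02 to 3.26 FPKM) were present in every library. Trp53, which encodes the tumour suppressor p53, had 0 to 2 counts per library, a value that sits oddly with cells described as wild type and whose cause was not tested. The 6 endothelial markers summed to 0.202 to 0.246 FPKM in iso-osmolar medium, 3.36 to 3.84 FPKM at 500 mOsm and 0.577 to 0.901 FPKM at 600 mOsm, and the 6 epithelial markers to 0.104 to 0.278, 1.17 to 1.47 and 0.14 to 0.324 FPKM. The endothelial sum was carried mainly by Pecam1, at 0.0535 to 3.52 FPKM over the libraries. The other 5 endothelial markers stayed below 1 FPKM in every library, with Cdh5 at 0.114 to 0.204 FPKM. The part of these low signals in any result was not tested.

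Promoters of 4 members are shown because the results turn on Irf1, Irf5 and Irf2bp2, and because Irf2, the partner of Irf1, is a member with no called change. Each sequence is from RefSeq (GRCm38.p6) and runs from 250 bases before to 50 bases after the start site, in the direction of the gene. The capitals mark matches to 4 letter patterns searched on both strands: the interferon-gamma activated site GAS (TTCNNNGAA), the IRF element (GAAANNGAA), the NF-kB site and the TonE site, the element read by the osmotic stress factor TonEBP.
Irf1, chr11:53769764-53770063, plus strand: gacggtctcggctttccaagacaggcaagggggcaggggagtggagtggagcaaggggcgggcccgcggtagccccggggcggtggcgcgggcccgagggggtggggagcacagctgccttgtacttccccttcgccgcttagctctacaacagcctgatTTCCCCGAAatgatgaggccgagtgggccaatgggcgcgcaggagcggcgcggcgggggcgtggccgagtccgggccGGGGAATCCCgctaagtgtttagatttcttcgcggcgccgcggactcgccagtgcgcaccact
Irf2, chr8:46739495-46739794, plus strand: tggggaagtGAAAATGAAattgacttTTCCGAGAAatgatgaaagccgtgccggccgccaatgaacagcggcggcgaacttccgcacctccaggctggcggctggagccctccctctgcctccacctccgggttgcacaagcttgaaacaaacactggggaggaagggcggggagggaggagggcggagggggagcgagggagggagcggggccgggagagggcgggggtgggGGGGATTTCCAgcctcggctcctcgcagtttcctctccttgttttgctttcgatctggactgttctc
Irf5, chr6:29526375-29526674, plus strand: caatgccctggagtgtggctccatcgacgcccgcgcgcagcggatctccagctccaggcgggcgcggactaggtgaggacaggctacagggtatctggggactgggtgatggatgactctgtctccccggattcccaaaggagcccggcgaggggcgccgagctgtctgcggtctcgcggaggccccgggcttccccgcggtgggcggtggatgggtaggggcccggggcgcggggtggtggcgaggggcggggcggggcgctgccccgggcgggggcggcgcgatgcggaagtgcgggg
Irf2bp2, chr8:126593937-126594236, minus strand: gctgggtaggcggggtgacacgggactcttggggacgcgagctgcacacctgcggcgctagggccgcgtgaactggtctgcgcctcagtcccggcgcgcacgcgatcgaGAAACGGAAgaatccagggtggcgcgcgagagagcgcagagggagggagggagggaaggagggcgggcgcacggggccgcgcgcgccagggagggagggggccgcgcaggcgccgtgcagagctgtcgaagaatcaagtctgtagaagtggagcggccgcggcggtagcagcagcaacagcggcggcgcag

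In the Irf1 promoter shown, the capitals mark a GAS whose first base lies at -90 from the start site and an NF-kB site at -13. A second promoter listed for Irf1, chr11:53770223-53770522, is not shown and held 0 matches to the 4 patterns. In the Irf2 promoter they mark an IRF element at -241, a GAS at -224 and, at -17, an NF-kB site that overlaps a TonE site on the other strand. The Irf2bp2 promoter holds an IRF element at -141, and the Irf5 window holds no match. Among all 32851 promoters of the same length, 8.30% hold the GAS, 8.56% the IRF element, 4.51% the NF-kB site and 4.96% the TonE site. The 10 promoters listed for the 8 members held them in 4, 2, 2 and 1 cases. These matches are strings of letters in a window, not measured binding sites.

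In iso-osmolar medium the members covered a wide range of FPKM, a scale set per length so that genes of different length can be set side by side. It depends on the length used, 2484 bases for Irf2, whose longest transcript has 3965, and it is not adjusted for G and C content. Irf2bp1 was the highest on this scale, at 56.3 FPKM ± 8.87 (SD, n = 3), followed by Irf2bpl at 26.6 FPKM ± 4.23, Irf2bp2 at 21.2 FPKM ± 2.57 and Irf1 at 19.0 FPKM ± 0.41. Irf5 (14.6 FPKM ± 0.191), Irf3 (11.2 FPKM ± 0.167) and Irf2 (4.94 FPKM ± 0.461) came next, and Irf8 stood at 0.0079 FPKM. Irf2bpl and Irf2bp2 overlapped between libraries, as did Irf2bp2 and Irf1, and all other neighbours in this order were separate. At 500 mOsm Irf1 lay below all 3 IRF2BP genes, with Irf3 and then Irf5 below it. At 600 mOsm Irf1 lay directly under Irf2bp1, above Irf2bpl and Irf2bp2, and no library of Irf1 overlapped one of Irf2bpl. Irf5 moved from directly above Irf3 in iso-osmolar medium to directly below it at both intensities.

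**Figure D1:**
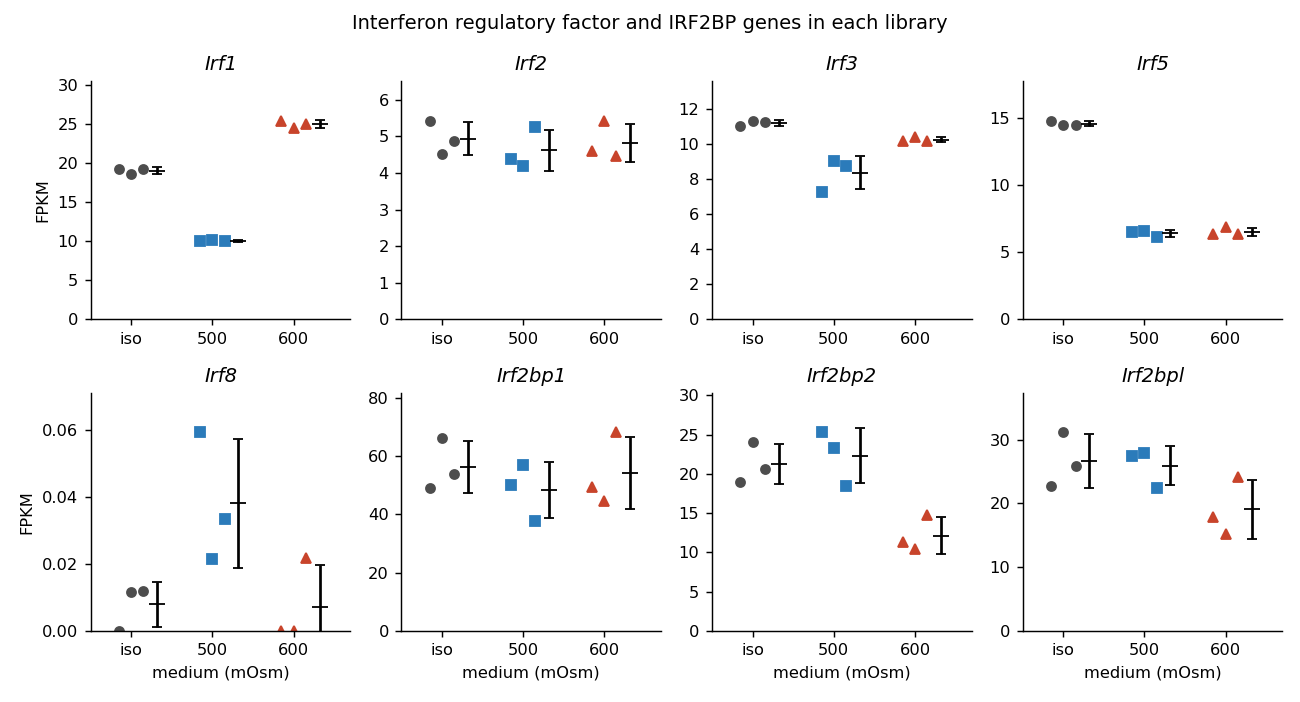
FPKM of each member (vertical axes, from 0, each with its own scale) in the 3 libraries of iso-osmolar, 500 and 600 mOsm medium (horizontal axis). Symbols are libraries and the bar beside them is the mean ± SD. Irf1 is lowest at 500 mOsm and highest at 600 mOsm, Irf5 is low at both, Irf2bp2 is low at 600 mOsm, and Irf8 is near 0 throughout.

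Irf1 (ENSMUSG00000018899, GRCm38 chromosome 11, 53770014 to 53778374, plus strand, up to 10 exons) changed in opposite directions at the 2 intensities. It measured 19.3, 18.5 and 19.2 FPKM in iso-osmolar medium, 10.0, 10.1 and 9.94 FPKM at 500 mOsm, and 25.4, 24.5 and 25.0 FPKM at 600 mOsm. The 3 groups did not overlap, and the coefficient of variation within a group was 0.896% to 2.16%. At 500 mOsm Irf1 fell to 0.529 of its iso-osmolar level (95% interval 0.484 to 0.577), a log2 fold change of -0.92 (SE 0.06, edgeR adjusted p = 1.46e-07). At 600 mOsm it rose to 1.33 times that level (1.22 to 1.45), a log2 fold change of 0.41 (SE 0.06, edgeR adjusted p = 0.000114). Between the intensities it was 2.52-fold higher at 600 mOsm (2.31 to 2.75, log2 fold change 1.33, edgeR adjusted p = 5.83e-09). Of the 13082 genes tested, 18 (0.138%), Irf1 among them, had this set of calls, lower at 500 mOsm, higher at 600 mOsm and higher at 600 than at 500 mOsm. Irf1 shares 135 exon bases with Gm17334 on the opposite strand, which had 0 to 5 counts in any library.

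The genes nearest to Irf1 by the pair of log2 fold changes against iso-osmolar medium, among 10380 genes with an average log2 CPM (library-scaled counts, log2) of at least 1, were Lrrc8e, Ankrd9 and Arhgef39. Lrrc8e, a subunit of the volume-regulated anion channel, had log2 fold changes of -0.87 at 500 mOsm and 0.38 at 600 mOsm, at a distance of 0.0608 from Irf1. Ankrd9 had -0.86 and 0.41, at a distance of 0.0609. Arhgef39, a guanine nucleotide exchange factor, had -0.89 and 0.28, at a distance of 0.133. The likeness rests on 2 values per gene from 9 libraries, and both values share the iso-osmolar libraries.

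Irf2 (ENSMUSG00000031627, chromosome 8, 46739745 to 46847458, plus strand) showed no called change. It measured 5.43, 4.52 and 4.87 FPKM in iso-osmolar medium, 4.39, 4.2 and 5.27 FPKM at 500 mOsm, and 4.61, 5.43 and 4.45 FPKM at 600 mOsm. The groups overlapped in every comparison. Relative to iso-osmolar medium its level was 0.938 at 500 mOsm (95% interval 0.794 to 1.11) and 0.99 at 600 mOsm (0.838 to 1.17), so that a shift of the size seen in Irf1 at either intensity lay outside the interval. The ratio of Irf1 to Irf2 FPKM within a library, activator to repressor, was 3.55, 4.10 and 3.94 in iso-osmolar medium. It was 2.28, 2.41 and 1.89 at 500 mOsm and 5.51, 4.51 and 5.62 at 600 mOsm. The 3 groups of ratios, with means of 3.86 ± 0.286, 2.19 ± 0.272 and 5.21 ± 0.61 (SD, n = 3), did not overlap, and they are given without a test.

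Irf5 (ENSMUSG00000029771, chromosome 6, 29526625 to 29541869, plus strand, up to 10 exons) fell at both intensities. It measured 14.8, 14.4 and 14.5 FPKM in iso-osmolar medium, 6.50, 6.59 and 6.12 FPKM at 500 mOsm, and 6.33, 6.88 and 6.35 FPKM at 600 mOsm. Every stressed library lay below every iso-osmolar library, and the stressed groups overlapped each other. Its level relative to iso-osmolar medium was 0.44 at 500 mOsm (95% interval 0.396 to 0.49, log2 fold change -1.18, SE 0.07, edgeR adjusted p = 9.12e-08) and 0.453 at 600 mOsm (0.407 to 0.504, log2 fold change -1.14, SE 0.07, edgeR adjusted p = 1.56e-07). Between 600 and 500 mOsm the ratio was 1.03 (0.922 to 1.15, edgeR adjusted p = 0.718). The call pattern of Irf5, lower at both intensities with no call between them, was held by 733 tested genes (5.6%). Irf5 shares 411 exon bases with Tnpo3 on the opposite strand, which had 2112 to 2949 counts per library against 341 to 796 for Irf5. Whether reads were counted by strand is not given in the sources used here, so reads of Tnpo3 may be included in Irf5. Tnpo3 itself was not called in any comparison, with log2 fold changes of 0.01 at 500 mOsm and -0.16 at 600 mOsm. The summed myeloid and leukocyte markers measured 21.7 to 24.8 FPKM in iso-osmolar medium, 17.4 to 28.6 FPKM at 500 mOsm and 21.0 to 29.5 FPKM at 600 mOsm, a sum carried mainly by Cd14, Lyz2 and Csf1r. The part of such cells in the Irf5 result was not tested.

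The genes with the pair of changes closest to that of Irf5 were Dicer1, Xbp1 and Bcl7a. Dicer1, the nuclease that matures microRNAs, had log2 fold changes of -1.23 at 500 mOsm and -1.19 at 600 mOsm (distance 0.0654). Xbp1, a transcription factor of the unfolded protein response, had -1.26 and -1.13 (distance 0.0731). Bcl7a, a subunit of SWI/SNF chromatin remodelling complexes, had -1.20 and -1.04 (distance 0.107).

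Irf3 (ENSMUSG00000003184, chromosome 7, 44997648 to 45002848, plus strand) was lower at 500 mOsm. It measured 11.0, 11.3 and 11.2 FPKM in iso-osmolar medium, 7.27, 9.04 and 8.71 FPKM at 500 mOsm, and 10.1, 10.4 and 10.1 FPKM at 600 mOsm. The 3 groups did not overlap, and the 500 mOsm libraries spread more than the others. At 500 mOsm Irf3 fell to 0.748 of its iso-osmolar level (95% interval 0.657 to 0.851, log2 fold change -0.42, SE 0.09, edgeR adjusted p = 0.00253). The 600 mOsm level was 0.927 of the iso-osmolar level (0.815 to 1.05), which did not pass the test (edgeR adjusted p = 0.345). Irf3 was 1.24-fold higher at 600 than at 500 mOsm (1.09 to 1.41, edgeR adjusted p = 0.0173), and without 500 mOsm replicate 1, its lowest library, this call was lost (log2 fold change 0.22, edgeR adjusted p = 0.0611). Irf3 shares 88 exon bases with Bcl2l12 on the opposite strand (30 to 87 counts per library), and Bcl2l12 was also lower at 500 mOsm (log2 fold change -0.95, edgeR adjusted p = 0.0108). The ratio of Irf3 to Irf5 FPKM, given without a test, was 0.768 ± 0.0213 (SD, n = 3) in the iso-osmolar libraries, 1.30 ± 0.163 at 500 mOsm and 1.57 ± 0.0515 at 600 mOsm, with no overlap between groups.

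Irf8 (ENSMUSG00000041515, chromosome 8, 120736358 to 120756694, plus strand) was at the limit of detection. Its counts were 0, 1 and 1 in iso-osmolar medium, 5, 2 and 3 at 500 mOsm, and 0, 0 and 2 at 600 mOsm. The smallest signal was set at 3 counts, which is 0.112 to 0.138 CPM depending on the library, and only 500 mOsm replicates 1 and 3 reached it. No fold change is given, since the values are too close to that limit for one.

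Irf2bp2 (ENSMUSG00000051495, chromosome 8, 126588296 to 126593986, minus strand, 2 exons) was lower at 600 mOsm. It measured 19.0, 24.1 and 20.6 FPKM in iso-osmolar medium, 25.3, 23.2 and 18.4 FPKM at 500 mOsm, and 11.3, 10.4 and 14.7 FPKM at 600 mOsm. The 600 mOsm libraries lay below all others, and the iso-osmolar and 500 mOsm libraries overlapped. At 600 mOsm Irf2bp2 fell to 0.581 of its iso-osmolar level (95% interval 0.466 to 0.725, log2 fold change -0.78, SE 0.15, edgeR adjusted p = 0.00135) and to 0.552 of its level at 500 mOsm (0.443 to 0.688, edgeR adjusted p = 0.000788). At 500 mOsm it was 1.05 times the iso-osmolar level (0.848 to 1.31, edgeR adjusted p = 0.754). This set of calls was held by 879 tested genes (6.72%). Irf2bp2 shares 1039 exon bases with the antisense gene Gm26759, which had 0 to 5 counts in any library. The nearest genes by the pair of changes were Akap13 (0.07 and -0.82), an anchor of protein kinase A, Dnajc13 (0.06 and -0.74), an endosomal co-chaperone, and Kmt2c (0.11 and -0.77), a histone methyltransferase, all at distances of 0.0413 to 0.0429.

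Irf2bpl (ENSMUSG00000034168, chromosome 12, 86880703 to 86884814, minus strand, 1 exon) measured 22.8, 31.2 and 25.9 FPKM in iso-osmolar medium, 27.5, 27.9 and 22.4 FPKM at 500 mOsm, and 17.9, 15.1 and 24.1 FPKM at 600 mOsm. Replicate 3 at 600 mOsm lay among the libraries of the other groups. Against iso-osmolar medium Irf2bpl was called lower at 600 mOsm, at 0.728 of that level (95% interval 0.569 to 0.931, log2 fold change -0.46, SE 0.16, edgeR adjusted p = 0.0455), close to the threshold. The call was lost when any of 5 libraries was left out, with edgeR adjusted p values of 0.175 without iso-osmolar replicate 2, 0.068 without iso-osmolar replicate 3, 0.0561 without 500 mOsm replicate 1, 0.138 without 600 mOsm replicate 1 and 0.142 without 600 mOsm replicate 2. It was also lost with the replicate number as a block (edgeR adjusted p = 0.089) and in DESeq2 (adjusted p = 0.144). Between 600 and 500 mOsm the log2 fold change of -0.42 did not pass the test (edgeR adjusted p = 0.0714), but it passed without 500 mOsm replicate 3 (-0.52, adjusted p = 0.048) and without 600 mOsm replicate 3 (-0.64, adjusted p = 0.00606). At 500 mOsm the ratio to iso-osmolar medium was 0.975 (0.764 to 1.24).

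Irf2bp1 (ENSMUSG00000044030, chromosome 7, 19004065 to 19006761, plus strand, 1 exon) showed no called change. It measured 49.1, 66.2 and 53.7 FPKM in iso-osmolar medium, 50.2, 56.8 and 37.8 FPKM at 500 mOsm, and 49.4, 44.7 and 68.1 FPKM at 600 mOsm. All groups overlapped. Its level relative to iso-osmolar medium was 0.859 at 500 mOsm (95% interval 0.658 to 1.12) and 0.975 at 600 mOsm (0.748 to 1.27). The first of these intervals would also hold a change of the size that was called for Irf3 at 500 mOsm.

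**Figure D2:**
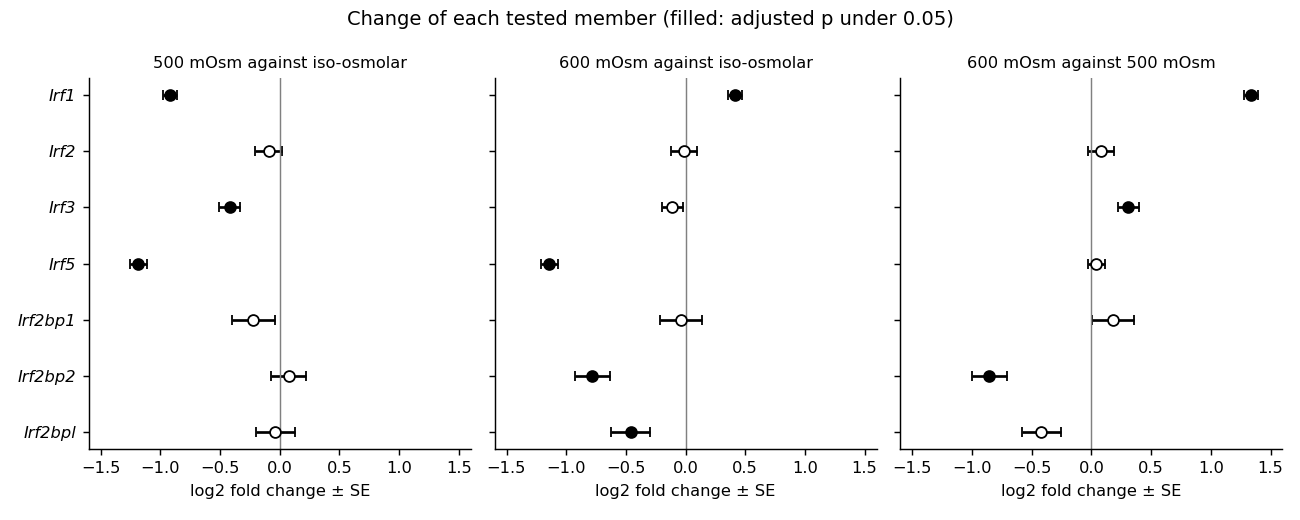
Log2 fold change of the 7 tested members (horizontal axes, zero line in grey) in the 3 comparisons, with bars of ± 1 SE from edgeR. Filled points passed the adjusted threshold of 0.05. Irf1 lies at -0.92, 0.41 and 1.33, Irf5 at -1.18, -1.14 and 0.04, and Irf2bp2 at 0.07, -0.78 and -0.86.

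At 500 mOsm against iso-osmolar medium, edgeR called 3 of the 7 tested members, all lower and 0 higher (0 higher also at an unadjusted p under 0.05, in DESeq2 and in limma), where 28% of all genes tested were called, 13.2% higher and 14.8% lower. At 600 mOsm against iso-osmolar medium 1 member was called higher and 3 lower, where 35.1% of all genes were called, 15.1% higher and 20% lower. Between 600 and 500 mOsm 2 were called higher and 1 lower, where 29.1% of all genes were called, 11.9% higher and 17.2% lower. With 7 genes, these counts are not set apart from those shares. The comparisons share libraries, so their calls for a member are not independent of each other.

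The 3 IRF2BP genes varied together between libraries of a group. Their biological coefficients of variation (the spread between libraries beyond counting) were 0.152 for Irf2bp1, 0.126 for Irf2bp2 and 0.14 for Irf2bpl, and 87.8%, 80.5% and 85.0% of all genes tested had a lower value. Those of the 4 tested IRF genes were 0.0515 for Irf1, 0.0868 for Irf2, 0.0707 for Irf3 and 0.0579 for Irf5. In 600 mOsm replicate 3 the log2 levels of Irf2bp1, Irf2bp2 and Irf2bpl lay 0.38, 0.32 and 0.39 above their group means, and in 600 mOsm replicate 2 they lay at -0.28, -0.24 and -0.33. In 500 mOsm replicate 3 they lay at -0.34, -0.28 and -0.22, and in iso-osmolar replicate 2 at 0.26, 0.20 and 0.26. In each of the 9 libraries the 3 genes deviated to the same side. Irf1 stayed between -0.06 and 0.03 across all libraries, and Irf5 between -0.08 and 0.06. The other tested IRF genes spread more, Irf2 from -0.11 to 0.18 and Irf3 from -0.19 to 0.14.

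The IRF2BP transcripts had a G and C (GC) content of 63.6% for Irf2bp1, 60.0% for Irf2bpl and 54.6% for Irf2bp2. The median over the genes tested was 50.2%. Irf3, at 56.7%, and Irf5, at 55.7%, were richer in G and C than Irf2bp2. Irf2bp1 and Irf2bpl belong to the 1303 tested genes with a GC content of 58.1% or more. The median deviation of these GC-rich genes was 0.11 in 600 mOsm replicate 3, 0.10 in 500 mOsm replicate 2 and 0.09 in iso-osmolar replicate 2. It was -0.12 in 500 mOsm replicate 3, -0.10 in 600 mOsm replicate 2 and -0.09 in iso-osmolar replicate 1. These are the libraries in which Irf2bp1 was highest and lowest of its group. The part of GC content in the shared spread of the IRF2BP genes was not tested. A correction of each library for the GC content and length of its transcripts was added after the data were seen. With it, the SE of the log2 fold change of Irf2bp1 at 500 mOsm went from 0.18 to 0.09 and that of Irf2bpl at 600 mOsm from 0.16 to 0.11. That of Irf2bp2 at 600 mOsm against iso-osmolar medium went from 0.15 to 0.12. Irf2bp1 was then called lower at 500 mOsm (log2 fold change -0.27, edgeR adjusted p = 0.0335), a call that was lost when the replicate block was added to the correction (adjusted p = 0.0654). The corrected change of Irf2bp2 from iso-osmolar medium to 600 mOsm was still called (log2 fold change -0.69, edgeR adjusted p = 0.000527) and Irf2bpl had a log2 fold change of -0.47 (edgeR adjusted p = 0.00258).

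**Figure D3:**
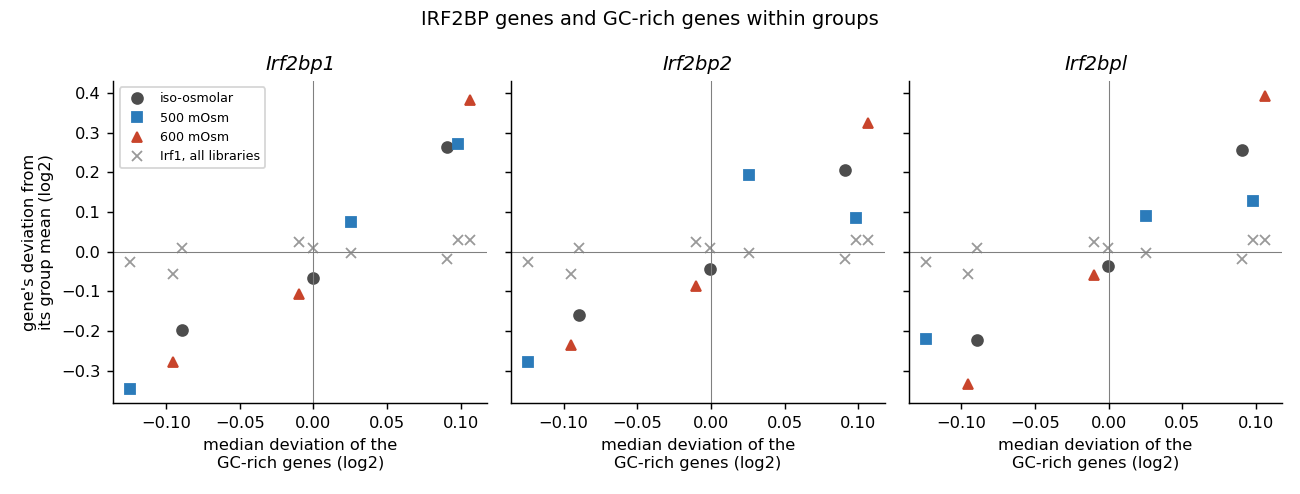
Deviation of Irf2bp1, Irf2bp2 and Irf2bpl from their group mean in each library (vertical axis, log2) against the median deviation of the 1303 GC-rich genes in that library (horizontal axis, log2). Coloured symbols are the 9 libraries by group and grey crosses are Irf1. The IRF2BP genes spread from -0.34 to 0.39, and Irf1 stays near 0. In each group Irf2bp1 and Irf2bpl are highest in the library where GC-rich genes are highest. At 500 mOsm Irf2bp2 is highest in replicate 1, at 0.19 with a GC-rich median of 0.03. In 500 mOsm replicate 2 these values are 0.09 and 0.10.

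Within a library the IRF2BP genes can be set against each other, and these ratios were tighter than the levels. The ratio of Irf2bp2 to Irf2bp1 FPKM was 0.388, 0.363 and 0.384 in iso-osmolar medium, 0.504, 0.409 and 0.487 at 500 mOsm, and 0.229, 0.232 and 0.217 at 600 mOsm. The 3 groups did not overlap, with 500 mOsm highest and 600 mOsm lowest. The ratio of Irf2bpl to Irf2bp1 was 0.464, 0.470 and 0.483 in iso-osmolar medium, 0.548, 0.491 and 0.591 at 500 mOsm, and 0.363, 0.338 and 0.354 at 600 mOsm. Here too the groups did not overlap, although the Irf2bpl levels themselves did. The nearest iso-osmolar and 500 mOsm ratios, 0.483 and 0.491, lay close together. Irf2bp2 to Irf2bpl was 0.801 ± 0.0317 (SD, n = 3) in the iso-osmolar group, 0.859 ± 0.0536 at 500 mOsm and 0.643 ± 0.0394 at 600 mOsm, and only the 600 mOsm group stood apart. The ratios are given without a test. The genes of a pair differ in GC content, and its part in the ratios was not tested.

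**Figure D4:**
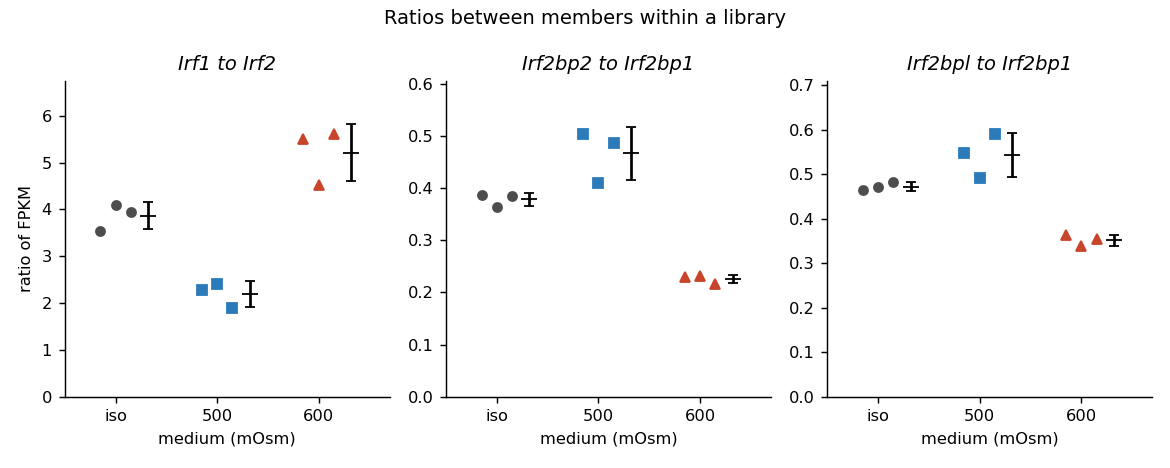
Ratios of FPKM within each library (vertical axes, from 0) for Irf1 to Irf2, Irf2bp2 to Irf2bp1 and Irf2bpl to Irf2bp1 in the 3 media (horizontal axis). Symbols are libraries, bars are mean ± SD (n = 3). In all 3 panels the groups do not overlap, and the first is highest at 600 mOsm while the other two are lowest there.

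Other genes of the pathway were read from 6 lists, with counts of calls from the same test. Of the other interferon regulatory factors, Irf4 had 8 counts over all libraries and was not tested. Irf7, a mediator of type I interferon induction, had 6 to 9 counts in iso-osmolar medium and 15 to 18 at 500 mOsm, and was called higher there (log2 fold change 1.08, SE 0.34, edgeR adjusted p = 0.0314). Irf9, which encodes the DNA-binding subunit of the complex that type I interferons activate, was called lower at 500 mOsm (log2 fold change -0.54, SE 0.17, edgeR adjusted p = 0.0289). DESeq2 called only Irf9 and limma on log2(FPKM + 1) only Irf7. At 600 mOsm edgeR called 0 of the 2 (1 at an unadjusted p under 0.05, and 0 in DESeq2 and limma). Over all genes tested 28% were called at 500 mOsm and 35.1% at 600 mOsm, and 2 genes are too few to be set against these shares. All 10 interferon genes of the list, Ifnb1 and Ifng among them, had at most 5 counts in any library and none was tested.

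Of 16 tested kinases and adaptors that activate IRF proteins, 1 was higher and 1 lower at 500 mOsm, 0 and 4 at 600 mOsm, and 1 and 4 between 600 and 500 mOsm, where 28%, 35.1% and 29.1% of all genes tested were called. For the count of 0, edgeR had 1 gene higher at an unadjusted p under 0.05, and DESeq2 and limma had 0. The medians of their log2 fold changes were 0.01, -0.08 and -0.03, beside 0.01, 0.01 and 0.01 over all genes. By direction, 13.2%, 15.1% and 11.9% of all genes tested were higher and 14.8%, 20% and 17.2% lower. Ticam1, the TRIF adaptor of TLR3 and TLR4 upstream of IRF3, fell at 500 mOsm (log2 fold change -0.69, edgeR adjusted p = 2.23e-05) and less at 600 mOsm (-0.27, adjusted p = 0.0159), and was higher at 600 than at 500 mOsm (0.42, adjusted p = 0.00145). The ubiquitin ligase gene Traf6 was lower at 600 mOsm (-0.38, edgeR adjusted p = 0.00509). The remaining calls at the intensities against iso-osmolar medium were Irak1, at 0.19 at 500 mOsm, and Traf3 and Dhx58, at -0.19 and -0.57 at 600 mOsm.

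Of 13 tested genes of interferon receptors and JAK-STAT signalling, 2 were higher and 5 lower at 500 mOsm, 0 and 3 at 600 mOsm, and 4 and 1 between 600 and 500 mOsm, with medians of -0.07, -0.06 and 0.12. Over all genes tested 28%, 35.1% and 29.1% were called in these comparisons, with medians of 0.01, 0.01 and 0.01. By direction, 13.2%, 15.1% and 11.9% of all genes were higher and 14.8%, 20% and 17.2% lower. For the count of 0, edgeR had 3 genes higher at an unadjusted p under 0.05, and DESeq2 and limma had 0. Socs1, an inhibitor of JAK kinases, fell from 29.2 FPKM ± 3.61 in iso-osmolar medium to 6.74 FPKM ± 0.847 at 500 mOsm and 13.8 FPKM ± 3.95 at 600 mOsm. Its log2 fold changes were -2.11 and -1.06 (edgeR adjusted p = 2.66e-06 and 0.000542). Socs3 rose at 500 mOsm (1.03, edgeR adjusted p = 1.9e-05). Stat2 was lower at 500 mOsm (-0.56) and higher at 600 than at 500 mOsm (0.81, edgeR adjusted p = 0.000809). Among receptor chains, Ifngr2 was lower at 500 mOsm (-0.34, edgeR adjusted p = 0.000746) and higher at 600 than at 500 mOsm (0.27), and its value at 600 mOsm against iso-osmolar medium was -0.06 (adjusted p = 0.427). Ifnar1 was lower at both intensities (-0.30 and -0.25), as was Il10rb (-0.54 and -0.42).

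Of 15 tested textbook IRF1 target genes, 5 were higher and 0 lower at 500 mOsm, where 13.2% of all genes tested were higher and 14.8% lower. The count of 0 lower genes was also 0 at an unadjusted p under 0.05 in edgeR and in DESeq2 and limma. At 600 mOsm 4 were higher and 2 lower, and between 600 and 500 mOsm 2 were higher and 5 lower, where the shares over all genes were 15.1% and 20%, and 11.9% and 17.2%. The list medians were 0.20, 0.14 and 0.06, beside 0.01, 0.01 and 0.01 over all genes. Tap1, a peptide transporter of antigen presentation, rose at 500 mOsm from 0.381 to 1.08 FPKM (log2 fold change 1.49, edgeR adjusted p = 2.04e-05). The immunoproteasome gene Psmb9 rose there from 4 to 6 counts per library to 20 to 31 counts (2.19, edgeR adjusted p = 0.00038). The chemokine gene Cxcl10 also rose at 500 mOsm (0.77, edgeR adjusted p = 0.00703). All 3 were lower at 600 than at 500 mOsm, Psmb9 with a log2 fold change of -2.05, Tap1 with -1.03 and Cxcl10 with an edgeR adjusted p of 0.00157. Ptgs2, which encodes cyclooxygenase 2, rose at 500 mOsm (0.55) and fell at 600 mOsm (-1.62, edgeR adjusted p = 3.51e-07). Cdkn1a, which encodes the cell cycle inhibitor p21, had 0.44 at 500 mOsm (edgeR adjusted p = 0.00847) and -1.75 at 600 mOsm (edgeR adjusted p = 4.19e-07). The 2 genes called lower at 600 mOsm were these last, while the 4 called higher, Tapbp, Vcam1, Psmb10 and B2m, had log2 fold changes of 0.23 to 0.32.

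**Figure D5:**
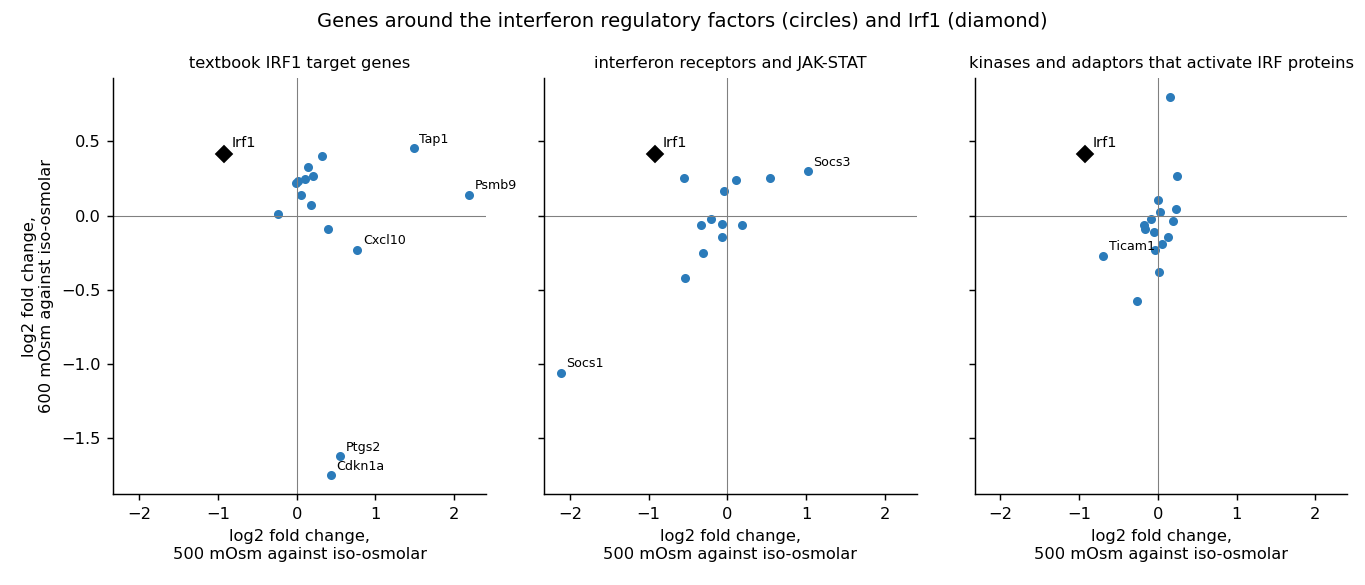
Log2 fold change at 600 mOsm (vertical axis) against that at 500 mOsm (horizontal axis), both against the same iso-osmolar libraries, for the tested genes of 3 lists (circles) and for Irf1 (diamond, -0.92 and 0.41). Tap1 and Psmb9 lie to the right at 1.49 and 2.19, Ptgs2 and Cdkn1a below at -1.62 and -1.75, and Socs1 at the lower left.

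Of the 8 tested partners and cofactors of IRF and IRF2BP proteins, 2 were higher and 1 lower at 500 mOsm, 1 higher and 4 lower at 600 mOsm, and 0 higher and 5 lower at 600 against 500 mOsm, with medians of 0.02, -0.45 and -0.85. Over all genes tested 13.2%, 15.1% and 11.9% were higher and 14.8%, 20% and 17.2% lower, with medians of 0.01, 0.01 and 0.01. The count of 0 higher genes was also 0 at an unadjusted p under 0.05 in edgeR and in DESeq2 and limma. Vgll4, a TEAD cofactor and partner of IRF2BP2, rose at 500 mOsm (1.04, edgeR adjusted p = 1.69e-08) and had 0.06 at 600 mOsm (edgeR adjusted p = 0.411). Nfatc2, a factor repressed by IRF2BP2, was lower at 600 mOsm (-1.34, edgeR adjusted p = 3.17e-05), as was the acetyltransferase gene Crebbp (-0.87, edgeR adjusted p = 4.28e-06). The corepressor gene Nrip1 was lower at both intensities (-0.74 and -0.99).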

How the data were processed

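RNA-seq libraries of 9 MEF samples, 3 per treatment, were analysed. Paired-end reads had been aligned to mm10, and the submitters' processing notes name CASAVA 1.8 and STAR. The counting tool and its strand setting are not given in the sources used here. The authors deposited whole-number read counts per gene, without normalization, and FPKM made from them by gene length and library total. The authors' fold changes and p-values for each pair of treatments were not used.

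TMM factors scaled the counts, and edgeR 4.0.16 (R 4.3.3) fitted a quasi-likelihood model to all 9 libraries and the 13082 genes kept by filterByExpr. Benjamini-Hochberg adjustment ran over these genes, with a threshold of 0.05. FPKM served for levels and ratios. Positions, exons, overlaps and GC content are from GENCODE (GRCm38). The test was tried on simulated data. Alternatives used DESeq2 1.42.0, limma 3.58.1 on log2 FPKM with 1 or 0.1 added, other scalings and filters, the replicate number as a block and each library left out.

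The members, lists, tests and motifs were chosen with earlier results of these data known. Named are all members, up to 4 called genes with the largest change per list and comparison, and the 3 genes nearest to each of the 3 members with the smallest p. Some genes of the lists are not reported here by name. Psmb10 and B2m were named after their values were seen.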

Additional observations from a re-analysis of the deposited data

How the results depend on the processing

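Each of the 21 log2 fold changes of the 7 tested members was recomputed under 11 alternatives and with each library left out. With RLE size factors and with limma on log2(FPKM + 1) or log2(FPKM + 0.1), all 21 kept direction and side of the threshold. The calls of Irf1 and Irf5 against iso-osmolar medium, of Irf1 between intensities, of Irf3 at 500 mOsm and of Irf2bp2 at 600 mOsm in both comparisons held under every alternative and without any library. Irf2bpl at 600 mOsm against iso-osmolar medium was no longer called with at least 10 counts in every library (-0.46), in DESeq2 (-0.46) or in a fit of only the 2 groups compared (-0.45), and ranged from -0.68 to -0.31 without a library. Between 600 and 500 mOsm Irf2bpl was called with library size alone (-0.44), with no filter on genes (-0.40), with the GC and length correction (-0.40) and with that correction and the block (-0.41), and ranged from -0.64 to -0.27 without a library. Irf2bp1 was called at 500 mOsm with no filter (-0.24) and with the GC and length correction (-0.27), but not with that correction and the block, and between intensities with no filter (0.21), so that 5 members were called there without a filter. With no filter the log2 fold change of Irf2bp1 at 500 mOsm stayed near its main value of -0.22, while its SE went from 0.18 to 0.07. The number of genes called at 500 mOsm went from 3659 to 4808 in that setting. Changes of sign occurred only among uncalled values. With the GC and length correction, alone and with the block, Irf2 at 600 mOsm was 0.0757 and 0.0758, and Irf5 between intensities -0.00668 and -0.00587. Without a library, the range was -0.0234 to 0.20 for Irf2bp2 and -0.14 to 0.10 for Irf2bpl at 500 mOsm, -0.0900 to 0.0518 for Irf2 and -0.25 to 0.11 for Irf2bp1 at 600 mOsm, and 0.22 to 0.39 for Irf3 and -0.0332 to 0.34 for Irf2bp1 between intensities. The cause of these shifts was not tested. The GC and length correction was chosen after seeing the data.

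The replicate numbers 1 to 3 recur in each treatment, but same-numbered libraries of different treatments did not on average deviate together. Their mean r across genes was -0.198 over 9 pairs, from -0.535 to 0.450. Over 18 pairs with different numbers it was 0.101. Deviations from a group mean cancel within the group, so these means are tied and the second is no separate reference. With the replicate number as a block, Irf2bpl at 600 mOsm was -0.46 and no longer called, and the other 20 results kept their call. The block took the number of genes called from 3659 to 3111 at 500 mOsm, from 4594 to 3798 at 600 mOsm and from 3810 to 3089 between intensities.

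The 7 tested members had at least 265 counts per library, while Irf8 and the interferon genes, with at most 5 counts, could not be compared at this depth.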

Other observations

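Spi1, which encodes the IRF4 and IRF8 partner PU.1 and is known from myeloid cells, had 0 to 1 counts per library in iso-osmolar medium, 17 to 27 at 500 mOsm and 6 to 10 at 600 mOsm. It was called higher at both intensities against iso-osmolar medium (edgeR adjusted p = 6.02e-05 and 0.00346) and lower at 600 than at 500 mOsm (adjusted p = 0.0149). Irf8 had 2, 10 and 2 counts over the 3 libraries of these groups. Of the partner genes that were not tested, Trp53 had 12 counts in all, and Batf and Batf2 had 26 and 4 counts in all. Of the IRF1 target genes that were not tested, Il15 had 24 counts in all and Nos2 had 11.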
